A study of Rattus norvegicus with 44 samples.

Results

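The cortex that lay in the core of a permanent infarct was compared with the matching cortex of sham-operated rats 24 h after surgery, across all genes on a Whole Rat Genome array. The comparison used 8 of the 44 arrays of the series, 4 labelled as core area of infarcted rats at 24 h and 4 labelled as ipsilateral area of sham rats at 24 h, and the members were chosen from these labels alone. All rats were adult Sprague-Dawley rats that received ketamine, diazepam and atropine as anaesthesia and meloxicam. In the infarct group the right middle cerebral artery was permanently ligated through a small craniotomy (permanent middle cerebral artery occlusion, pMCAo). The common carotid arteries were closed for a time after the ligation. The sham rats went through the same surgery without occlusion. Each array held the RNA of 3 rats combined, called a pool here, so that the core group consisted of pools 1 to 4, the sham group of pools 5 to 8, and the spread between arrays is a spread between pools of different rats. Pooling hides how single animals varied, and the dissected tissue was a mixture of cells. A single dye was hybridised to each array, and every value below is a normalised signal or a difference of signals on the log2 scale, where 1 unit is a 2-fold change.

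When an artery supplying the cortex is closed for good, the tissue in the centre of its territory loses oxygen and glucose, neurons there die within hours, and the surviving glia, vessels and meninges together with incoming leukocytes respond over the following days. Unfolded proteins release heat shock factor and raise the inducible chaperones, stress kinases raise immediate early transcription factors, and danger signals acting on Toll-like and interleukin-1 receptors raise chemokines, which attract neutrophils first and monocytes afterwards. Matrix proteases and their inhibitors, complement, prostaglandin synthesis and, later, proliferation of glia and macrophages belong to the same sequence. The genes below are described in this order.

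The labelled tissue was present in both groups: Snap25, Syt1 and Map2 of neurons, Aqp4 and Slc1a2 of astrocytes and Mbp of oligodendrocytes were well above background on all 8 arrays. Between 62.5% and 77.7% of spots were well above background on the 44 arrays, with 66.5% to 73.6% on the core arrays and 65.4% to 77.7% on the sham arrays. The highest value of the series belonged to sham pool 8, whereas the other sham pools lay between 65.4% and 67.4%. The sham arrays differed among themselves in inflammatory genes. The neutrophil chemokine Cxcl1 had signals of 7.96 and 7.54 in sham pools 5 and 6 but of 0.55 and 0.84 in sham pools 7 and 8, against 0.57 to 1.91 in the ipsilateral cortex of unoperated healthy rats. The calgranulin S100a8 read 7.61 and 9.34 in sham pools 5 and 6, 4.61 and 4.51 in pools 7 and 8, and 1.51 to 3.46 in healthy cortex. Sham pool 5 shared a slide with core pool 1 and sham pool 6 shared a slide with core pool 4, so that differences taken within a slide rested on these same sham pools. No probe of 26033 tested was called between sham and healthy cortex with the limma fit (6550 had an unadjusted p below 0.05), but 1416 were called once sham pool 8 was left out. Where leaving out this pool changes the number of genes called in a list, that number is given beside the first.

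A probe was called when its adjusted p in the limma fit over all 44 arrays was below 0.05 and the difference was at least 2-fold. In this way 2342 probes of 26033 differed between core and sham cortex. Higher signals in core were called at 1619 probes (6.22% of those tested), which carried 947 named genes, and lower signals at 723 probes (2.78%), which carried 361 named genes. These shares are of probes, whereas the gene lists below count genes. The list counts are to be read against the 947 and 361 genes called higher and lower among 10737 named genes with a probe tested. The median difference of all probes was -0.10, so that the distribution as a whole lay slightly below 0. Of the 2342 called probes, 2012 (85.9%) had core and sham arrays that did not overlap, and 297 were in the dimmer group nowhere well above background, for which only a lower bound of the fold is given. The plot of all probes against their adjusted p shows the longer arm on the side of higher signal in core.

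**Figure D1:**
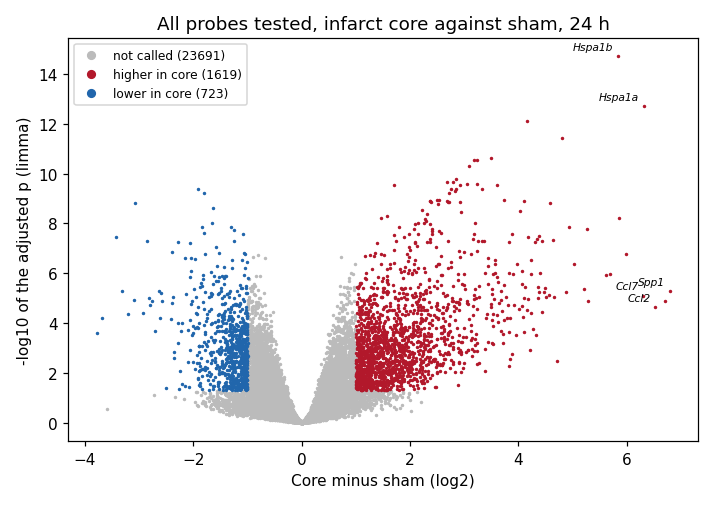
Difference between infarct core and sham cortex at 24 h (log2, x axis) against -log10 of the adjusted p from limma (y axis) for the 26033 probes tested, with the 1619 probes called higher in core in red and the 723 called lower in blue. Spp1, Ccl2, Ccl7, Hspa1a and Hspa1b are labelled, and Hspa1b and Hspa1a have the smallest adjusted p of all probes in the plot.

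Among named genes, the largest increases belonged to secreted proteins of inflammation and to the inducible chaperones. Spp1, which encodes osteopontin, a matrix protein secreted by activated macrophages and microglia, had signals of 14.93, 13.97, 14.82 and 14.59 in core pools 1 to 4 and of 8.91, 8.26, 8.02 and 5.94 in sham pools 5 to 8. The 2 groups lay far apart, and the difference was 6.80 ± 1.00 (SE), a 111-fold increase (adjusted p = 5.27e-06). Ccl2, the main attractant of monocytes, read 11.48, 12.81, 12.72 and 13.70 in core against 7.80, 8.64, 4.88 and 3.29 in sham. It rose 92.2-fold, and its sham pools fell into a higher and a lower pair (difference 6.53 ± 1.07, adjusted p = 2.34e-05). Hspa1a, an inducible chaperone of the Hsp70 family, had 11.86, 11.93, 11.94 and 12.29 in core and 4.84, 5.81, 6.11 and 6.02 in sham. The core pools differed from each other little while the groups differed by 6.31 ± 0.41, or 79.4-fold (adjusted p = 2.02e-13).

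The next increases were those of the monocyte attractant Ccl7 (6.31 ± 0.95), the AP-1 subunit Fosl1 (5.98 ± 0.72), the chemokine Ccl3 (5.85 ± 0.60), Hspa1b (5.84 ± 0.32), the hyaluronan synthase Has1 (5.69 ± 0.76) and the neutrophil chemokine Cxcl2 (5.29 ± 0.83). Their adjusted p lay between 1.94e-15 for Hspa1b and 1.28e-05 for Cxcl2. Hspa1a and Hspa1b encode nearly identical proteins, and how far a probe of one also measures the other was not tested. For all 9 increases named so far every core pool lay above every sham pool, and the call remained when any of the 8 arrays was left out.

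The largest decreases were those of extracellular matrix proteins and of membrane channels and transporters. Kcnj13, an inwardly rectifying potassium channel, had signals of 3.14, 5.45, 1.27 and 3.01 in core pools 1 to 4 and of 6.86, 7.35, 6.73 and 7.05 in the sham pools. It fell by 3.78 ± 0.74 (adjusted p = 0.000249), and the probe was well above background on 1 of the 4 core arrays. Defb1, a defensin, read 0.75, 4.49, 0.67 and 0.87 in core against 6.14, 4.55, 5.77 and 5.08 in sham, so that core pool 2 reached the lowest sham pool without passing it. The small leucine-rich proteoglycans Omd, Ogn and Fmod fell by 3.43 ± 0.38, 3.32 ± 0.49 and 2.63 ± 0.39. Ogn, osteoglycin, had 6.31, 7.67, 3.77 and 5.78 in core and 9.28, 8.59, 9.39 and 9.53 in sham. The matrix protein Cilp fell by 3.08 ± 0.30, the secreted protein Cytl1 by 2.85 ± 0.32, the heparan sulfate sulfotransferase Hs3st6 by 2.82 ± 0.43 and Slc6a13, a GABA transporter of the meninges and vessels, by 2.59 ± 0.39. Wnt6 was well above background on no core array and was at least 2.20-fold lower there. In each of these 10 genes core pool 2 had the highest core signal except in Cytl1, where it was core pool 3, and all remained called when any of the 8 arrays was left out. In bulk tissue, fewer cells of a type and less RNA per cell cannot be told apart.

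**Figure D2:**
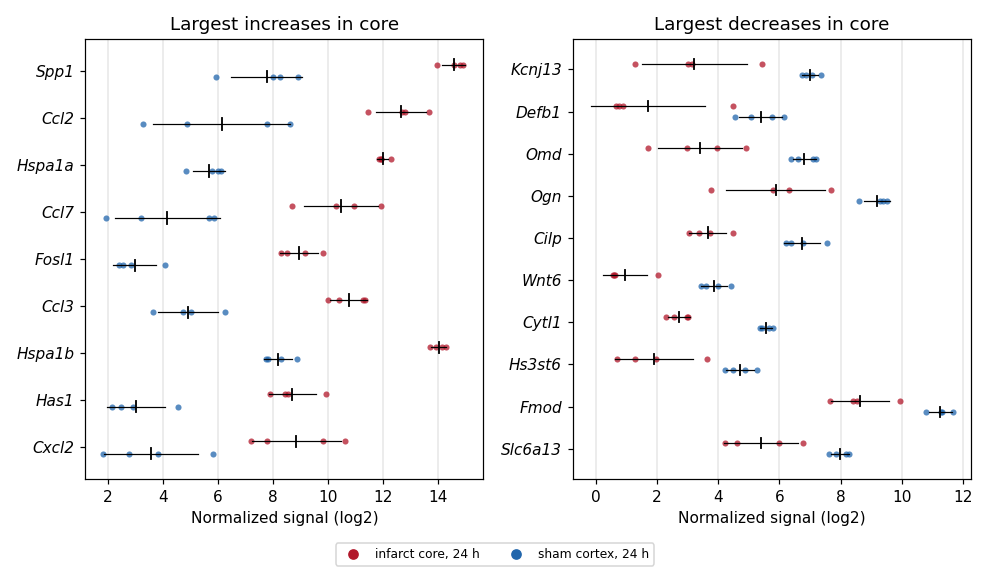
Normalised signal (log2, x axis) of 9 of the genes with the largest increases (left) and the 10 with the largest decreases (right) in infarct core, among called genes whose groups did not overlap. Each red point is a core pool and each blue point a sham pool (4 of each), the vertical mark is the mean and the line spans 1 SD on either side. Hspa1a and Hspa1b have the tightest core pools among the increases, whereas the core pools of Kcnj13, Defb1 and Ogn are spread widely.

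Inducible chaperones rose in core. Of 32 genes in the heat shock list, 29 had a probe that passed the filters, and 9 of these rose (10 without sham pool 8) and none fell, with a median difference of 0.67 beside -0.10 over all probes. The mean signal of the 29 genes lay between 10.90 and 11.06 in the core pools and between 9.83 and 9.95 in the sham pools, and the differences within the shared slides were 1.16 and 1.13. Hspb1, a small heat shock protein that is also made by reactive astrocytes, had 13.47, 14.36, 13.90 and 14.12 in core and 11.25, 10.23, 9.22 and 8.89 in sham (4.07 ± 0.53, adjusted p = 8.11e-07). Bag3, a co-chaperone of the Hsp70 family, read 11.84, 12.18, 12.02 and 12.56 against 9.67, 9.77, 9.84 and 9.67 (2.41 ± 0.26). Hspa2, Hspb8, Hsph1, Cryab and Dnaja1 rose by 1.79, 1.57, 1.57, 1.36 and 1.18. In these 9 genes the core and sham pools were separated. The other 20 genes, among them the constitutive Hspa8 and the mitochondrial Hspd1 and Hspe1, were not called, although a second probe of Hspd1 was.

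Heat shock factor binds arrays of short inverted repeats, the core of which is written GAANNTTC. This palindrome, which reads alike on either strand, was searched in the 250 bases before the start of each RefSeq gene, and 2420 of 33469 promoters (7.23%) held it. It was found in 5 of the 7 called chaperone genes with a promoter in the RefSeq table and in 6 of the 16 uncalled ones. Hspa1b and Cryab, which also rose, had no promoter in the RefSeq table. The stretches that hold the motif in the 5 called genes are printed below, whereas those of the 6 uncalled genes are not. The printed stretches are given in GRCr8 coordinates and 5′ to 3′ along the gene, with the motif in capitals. Hspb1 holds it at 2 places (chr12:26432373-26432460, minus strand), Bag3 at 1 (chr1:192533298-192533365, plus strand), Hspb8 at 1 (chr12:45837255-45837307, plus strand), Hsph1 at 1 (chr12:10427307-10427367, plus strand) and Dnaja1 at 1 (chr5:60638193-60638260, plus strand).
Hspb1: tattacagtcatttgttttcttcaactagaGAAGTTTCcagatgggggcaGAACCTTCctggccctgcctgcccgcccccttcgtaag
Bag3: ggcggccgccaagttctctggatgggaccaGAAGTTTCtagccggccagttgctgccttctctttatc
Hspb8: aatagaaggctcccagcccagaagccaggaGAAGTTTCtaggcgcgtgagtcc
Hsph1: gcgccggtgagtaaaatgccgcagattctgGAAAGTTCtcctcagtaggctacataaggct
Dnaja1: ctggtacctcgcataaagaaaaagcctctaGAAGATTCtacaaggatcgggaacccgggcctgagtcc
These letters were not found in the windows of Hspa1a and Hspa2. Hspb1, Bag3 and Hspb8 share the form GAAGTTTC of the motif, in Hspb1 at the first of its marked places only. A match describes the sequence and is no measure of binding.

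Immediate early genes, which encode transcription factors and signalling proteins induced without new protein synthesis, rose in core with a spread between pools that was wider than that of the chaperones. Of 32 genes tested, 13 rose (12 without sham pool 8) and none fell (median 0.81). The mean over the list was 8.84, 9.21, 9.80 and 10.52 in core pools 1 to 4 and 8.48 to 8.60 in the sham pools, and the differences within slides were 0.28 for core pool 1 and 1.92 for core pool 4. Atf3, a stress-induced partner of Jun, had 10.45, 10.69, 11.18 and 11.71 in core and 5.95, 6.97, 6.45 and 4.59 in sham (5.02 ± 0.63, adjusted p = 4.21e-07). Myc (2.36), Gadd45b (2.07), Dusp5 (1.89), a phosphatase of ERK, and Jun (1.51) rose with separated groups, as did Maff (3.15), whose probe was well above background on 1 sham array. Fos itself had 9.01, 9.32, 10.99 and 11.87 in core and 9.01, 8.22, 8.11 and 8.36 in sham. Its groups overlapped, and the increase of 1.87 ± 0.56 (adjusted p = 0.0123) was no longer called without core pool 3 or without core pool 4. Ptgs2, the inducible cyclooxygenase, followed the same order of pools, with 8.28, 9.59, 11.03 and 11.90 against 8.11 to 8.58. Egr1 and the neuronal gene Arc did not pass the test. Arc read 11.14, 11.75, 13.18 and 14.41 in core against 12.58 to 13.46 in sham, so that its core pools lay on both sides of the sham pools.

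Chemokines, the secreted attractants of leukocytes, had the largest median difference of the 20 gene lists (1.60). Of 25 genes tested, 12 rose (10 without sham pool 8) and 2 fell. The mean of the list was 7.23 to 7.80 in the core pools, 6.45 and 6.36 in sham pools 5 and 6, and 5.03 and 4.77 in sham pools 7 and 8. Ccl3 had signals of 10.40, 10.01, 11.38 and 11.30 in core and of 4.75, 6.27, 5.03 and 3.64 in sham, and its sham pools were not paired in the way of Ccl2. Cxcl1, at 8.61, 8.34, 9.60 and 9.22 in core, stood close above sham pools 5 and 6 and far above pools 7 and 8, so that its difference of 4.72 ± 1.19 (adjusted p = 0.00341) averages a small and a very large distance. Ccl12 (4.17), Ccl4 (3.53), Cxcl13 (2.80) and Cxcl3 (2.79) rose with separated groups. Ccl20 (2.89) and Ccl6 (1.75) were called with overlapping groups. Neither was called without sham pool 8, nor Ccl6 without core pool 3, nor Ccl20 without core pool 2, core pool 4 or sham pool 7. The genes that fell were Cxcl12, a chemokine of vessels and meninges (-1.48 ± 0.20, adjusted p = 1.28e-06, with a second probe not called), and Ccl19 (-1.46 ± 0.40), whose groups overlapped. The neuronal chemokine Cx3cl1 had 15.96 to 16.24 in core and 16.53 to 16.92 in sham, a difference of -0.67 that is below the 2-fold minimum. Among 10 chemokine receptors tested, Ccr1 (3.27), Cxcr4 (1.24) and Ccrl2 (1.02) rose and none fell. Cxcr4 and Ccrl2 were not called without core pool 3, core pool 4 or sham pool 5, nor Ccrl2 without sham pool 7. Ccr2, the receptor of Ccl2 on monocytes, was well above background on 1 core array and on no sham array.

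Of 18 cytokines tested, 9 rose and none fell (median 0.93). Clcf1, a ligand of the ciliary neurotrophic factor receptor, had 8.30, 9.53, 9.14 and 9.77 in core and 5.14, 5.54, 4.44 and 4.39 in sham (4.30 ± 0.49, adjusted p = 5.64e-08). Il1b read 8.12, 8.20, 10.02 and 9.93 against 6.56, 7.58, 5.65 and 4.89 (2.90 ± 0.58), and Il1rn, its natural antagonist, read 10.43, 10.24, 11.25 and 11.54 against 7.06, 8.26, 6.64 and 6.22 (3.82 ± 0.51). Il6 was well above background on all core arrays and on no sham array and was at least 4.55-fold higher in core. Tnf was at least 1.55-fold and Osm at least 1.56-fold higher on the same measure, Osm with 3 of 4 core arrays above background. Tnfsf9, Ltb and Csf1, the growth factor of microglia and macrophages, rose by 1.50, 1.47 and 1.16.

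Receptors for these ligands rose as well, with 11 of 25 cytokine receptors higher (10 without sham pool 8) and none lower (median 0.94). Tnfrsf12a, the receptor of the TNF family ligand TWEAK, had 11.14, 12.13, 11.80 and 12.54 in core and 8.77, 8.63, 8.04 and 7.92 in sham (3.56 ± 0.44, adjusted p = 2.86e-07). Il1r2, the decoy receptor of interleukin-1, rose by 3.51 with overlapping groups, because sham pool 6 read 7.18 and core pool 1 read 6.85. Il1rl1, the receptor of interleukin-33, was at least 3.94-fold higher, although its second probe was not called. Il4r (2.29), Tnfrsf1b (1.99) and Tnfrsf1a (1.40) were called with separated groups. In the JAK-STAT list 4 of 19 genes rose (3 without sham pool 8) and 1 fell (median 0.53). Stat3 had 10.40, 10.73, 10.87 and 11.21 against 8.81, 9.32, 8.60 and 8.78 (1.92 ± 0.29, adjusted p = 7.18e-06), and its feedback inhibitor Socs3 rose by 2.23 ± 0.52, while Stat4 fell by 1.26 ± 0.28. Pim1 (1.25) was not called without sham pool 8, core pool 3 or core pool 4.

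In the list of Toll-like receptors and NF-kappaB, 9 of 24 genes rose (10 without sham pool 8) and none fell (median 0.69). Cd14, a co-receptor for Toll-like receptor ligands, had 11.04, 11.44, 11.70 and 12.33 in core and 8.06, 8.06, 6.93 and 6.56 in sham (4.23 ± 0.52, adjusted p = 2.86e-07). Bcl3 (2.78), Birc3 (2.73), Tlr1 (2.57), the adaptor Myd88 (1.96), Nfkbiz (1.81), Tlr2 (1.52), the inhibitor Nfkbia (1.32) and Tlr4 (1.08) followed, all with separated groups. Of 26 genes of the interferon response, 11 rose and none fell (median 1.00), and all 26 differences were above 0. The proteasome subunit Psmb8 read 8.85, 8.72, 9.05 and 8.86 against 7.43, 6.79, 6.64 and 6.85 (1.94 ± 0.30, adjusted p = 1.13e-05). Without sham pool 8, however, the count was 8, as Mx1, Ifit3, Oasl and Gbp5 were no longer called and Irf1 was called in addition. These 4 had overlapping groups with all arrays, and each of them also lost its call when any of 3 or more other arrays was left out. Their probes were well above background on 3 or fewer sham arrays.

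Some complement genes rose at 24 h, where 947 of all 10737 named genes tested rose. Of 20 genes tested, 4 rose (3 without sham pool 8) and none fell (median 0.52), and the list mean of core pool 1 (7.42) was as high as that of sham pool 5 (7.44). The receptor C5ar1 had 8.22, 8.07, 8.74 and 8.58 in core and 6.65, 6.30, 5.76 and 5.25 in sham (2.41 ± 0.43, adjusted p = 7.67e-05), C3ar1 rose by 1.29 but not without sham pool 8, C1qc rose by 1.17 with a second probe not called, and Cd55 was at least 1.27-fold higher with overlapping groups and without a call when core pool 2, core pool 4 or sham pool 7 was left out. The central component C3 had 10.36 to 10.66 in core and 9.16 to 10.86 in sham (0.80 ± 0.32, adjusted p = 0.0654), and C1qa read 11.56 to 12.02 against 11.17 to 11.46 (0.47). In the list of prostaglandins and leukotrienes 8 of 22 genes rose and 2 fell (median 0.51), with 5 increases left without sham pool 8. Beside Ptgs2, the prostaglandin receptors Ptger3 (at least 2.91-fold) and Ptger2 (2.15 ± 0.45) rose, as did the thromboxane synthase Tbxas1 (1.64 ± 0.36) and the phospholipase Pla2g4a (1.36 ± 0.27). Ptgds, a prostaglandin D synthase abundant in the meninges, fell from 15.58, 15.05, 15.84 and 15.93 in sham to 13.41, 14.96, 11.83 and 14.07 in core (-2.03 ± 0.40), and the leukotriene synthase Ltc4s fell by 2.04 ± 0.25.

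Metabolic and stress responses were uneven. Of 27 genes of hypoxia and glycolysis, 4 rose and none fell (median 0.31). Slc16a3, a lactate exporter, had 10.39, 11.37, 11.67 and 11.70 in core and 9.10, 8.88, 7.77 and 7.71 in sham (2.92 ± 0.36, adjusted p = 2.21e-07). Hk2 was at least 2.41-fold higher with overlapping groups, Adm, which encodes the vasodilator adrenomedullin, rose by 1.70 ± 0.37 and Ldha by 1.09 ± 0.26, the latter not without core pool 3, core pool 4, sham pool 5 or sham pool 7. Hif1a read 11.97 to 12.55 against 11.20 to 11.60 in sham, a difference of 0.88 ± 0.13 that passed the p but not the 2-fold minimum, and Vegfa read 9.16 to 10.02 against 9.01 to 9.91. Among 25 genes of oxidative stress and metal binding, 8 rose and none fell (median 0.84), and 11 rose without sham pool 8. Hmox1, the inducible heme oxygenase, had 11.55, 11.87, 12.41 and 12.49 in core and 6.83, 7.44, 7.23 and 7.04 in sham (4.94 ± 0.52, adjusted p = 1.37e-08). The metallothioneins Mt1 and Mt2A rose by 2.49 and 1.31, the sulfiredoxin Srxn1 by 1.73, and the phagocyte oxidase subunits Ncf1 and Cyba by 1.88 and 1.55.

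Of 25 genes of the endoplasmic reticulum stress and amino acid response, 8 rose (9 without sham pool 8) and none fell (median 0.58). Trib3, a pseudokinase induced by Atf4 and Ddit3, had 9.10, 8.58, 9.02 and 8.51 in core and 5.54, 5.48, 5.17 and 5.04 in sham (3.50 ± 0.27, adjusted p = 2.31e-11). Cebpb (1.85), Ppp1r15a (1.42), Chac1 (1.37) and Ddit3 (1.11) rose with separated groups, Ddit3 not without core pool 4. Atf4 and the chaperone Hspa5 did not pass the filter on variation and were not tested. Their signals were 14.24 to 14.51 and 14.02 to 14.40 in core against 13.62 to 13.90 and 13.53 to 13.69 in sham.

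Genes that promote cell death and genes that restrain it rose in the same tissue. Of 37 tested, 17 rose (16 without sham pool 8) and 1 fell (median 0.82), and the list means of 7.66 to 7.73 in core and 6.63 to 6.98 in sham were separated. Ripk3, the kinase of necroptosis, had 9.80, 9.51, 9.54 and 9.88 in core and 8.06, 7.04, 6.45 and 6.04 in sham (2.78 ± 0.44, adjusted p = 1.28e-05). The inflammatory caspase Casp4 (1.70 ± 0.22) rose, together with the death receptor Fas (1.60 ± 0.35, with a second probe not called), the inflammasome genes Nlrp3 (1.44) and Pycard (1.41, with a second probe not called) and the neuronal BH3 protein Hrk (1.64 ± 0.39). The inhibitors of apoptosis that rose were Bcl2a1 (2.83 ± 0.50), Birc3 (2.73 ± 0.47), Mcl1 (1.69 ± 0.24) and Cflar (1.50 ± 0.22). Bcl2 read 5.72 to 6.42 in core and 6.62 to 7.00 in sham, which did not reach a 2-fold difference, and Aifm3 was the gene that fell (-1.48 ± 0.26).

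Proteases and their inhibitors rose side by side, with 13 of 37 genes higher and 1 lower (median 0.64). The serpin Serpina3n had 10.30, 10.74, 11.30 and 11.40 in core and 8.54, 6.96, 5.11 and 6.01 in sham (4.27 ± 0.81). Plaur, the urokinase receptor, rose by 4.23 ± 0.72 and its ligand Plau by 3.52 ± 0.65. Mmp3, stromelysin, was well above background on all core arrays and no sham array and was at least 6.66-fold higher. Mmp9, a gelatinase of neutrophils and vessels, had 6.32, 7.71, 7.75 and 8.37 in core and 5.06, 6.24, 4.38 and 4.55 in sham (2.48 ± 0.40, adjusted p = 2.07e-05), and core pool 1 lay just above sham pool 6. Timp1, which inhibits matrix metalloproteinases, read 13.34, 14.45, 14.14 and 15.40 against 12.90, 10.81, 9.86 and 9.70 (3.52 ± 0.62), whereas the astrocytic Timp4 fell by 1.56 ± 0.20.

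Of 36 genes of matrix and adhesion, 13 rose and 3 fell (median 0.31). Beside Spp1 and Has1, the endothelial selectin Sele had 8.43, 8.51, 7.38 and 8.59 in core and 4.17, 6.35, 2.00 and 2.17 in sham (4.56 ± 0.69, adjusted p = 7.74e-06). The hyaluronan receptor Cd44 (4.06 ± 0.57), the synthase Has2 (2.57 ± 0.48), the leukocyte integrins Itgb2 (2.18 ± 0.35) and Itgam (1.84 ± 0.36) and their ligand Icam1 (2.15 ± 0.35) rose, as did Tnc (2.33 ± 0.50) and Fn1 (1.29 ± 0.29). The genes that fell were Col1a1 (-1.52, with overlapping groups and no call without core pool 3), Col1a2 (-1.59) and Thbs2 (-1.80, with a second probe not called). Of 35 growth factors, 12 rose (11 without sham pool 8) and 3 fell (median 0.30). Gdf15 had 7.40, 6.37, 7.43 and 7.80 in core and 3.00, 3.81, 3.04 and 2.74 in sham (4.10 ± 0.63, adjusted p = 9.86e-06), and the epidermal growth factor receptor ligands Areg and Hbegf rose by 3.18 and 2.76. Tgfb2 had the smallest adjusted p of the list, with 6.96, 7.61, 7.61 and 7.62 against 5.56 to 6.13 (1.71 ± 0.15, adjusted p = 2.91e-10). Bdnf and Inhba followed the order of pools seen in Fos. Inhba read 8.32, 10.38, 12.72 and 12.97 in core against 8.56 to 8.81 in sham, and Bdnf read 7.04, 7.85, 10.37 and 10.66 against 6.96 to 7.64. Bdnf was no longer called without core pool 3 or core pool 4, nor without sham pool 5 or sham pool 7, and its second probe was not called. The decreases were those of Igf2 (-1.64), Vegfc (-1.10) and Ptn (-1.03, not called without core pool 3 or sham pool 5).

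Many cell cycle genes rose in core. Of 37 tested, 16 rose (17 without sham pool 8) and none fell (median 1.13), and the list mean was 7.13, 6.84, 7.01 and 6.69 in core and 5.51 to 5.86 in sham. Cdk1, the mitotic kinase, had 9.10, 8.36, 8.56 and 7.67 in core and 6.16, 5.73, 5.16 and 5.01 in sham (2.91 ± 0.67, adjusted p = 0.00141). Top2a rose by 3.74 ± 0.67 and Bub1b by 2.93 ± 0.66, each with 1 sham array well above background, and in Top2a, Bub1b and Cdk1 core pool 1 had the highest and core pool 4 the lowest core signal. The inhibitor Cdkn1a (2.44 ± 0.35) and Gadd45a (2.19 ± 0.31), which arrest the cycle after damage, rose too, with the highest signals in core pool 4. Ccnd1 had 10.65 to 11.53 in core and 9.70 to 10.81 in sham and fell short of the 2-fold minimum. The list of Notch, BMP and neural developmental regulators behaved otherwise, with 1 of 37 genes higher and 4 lower (5 without sham pool 8) and a median of -0.15 that turned to 0.01 with the authors' normalised table. Sox7, an endothelial factor, had 7.77, 8.23, 8.51 and 8.42 in core and 5.23, 5.47, 5.61 and 5.02 in sham (2.90 ± 0.34). The Notch target Hes5 fell from 8.06, 7.93, 8.01 and 8.54 to 6.95, 6.42, 5.22 and 5.55 (-2.10 ± 0.40), and Neurod1 (-1.48), Chrd (-1.39) and Nog (-1.11, with a second probe not called) fell as well. The bars of calls per list show increases without decreases in 12 of the 20 lists.

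**Figure D3:**
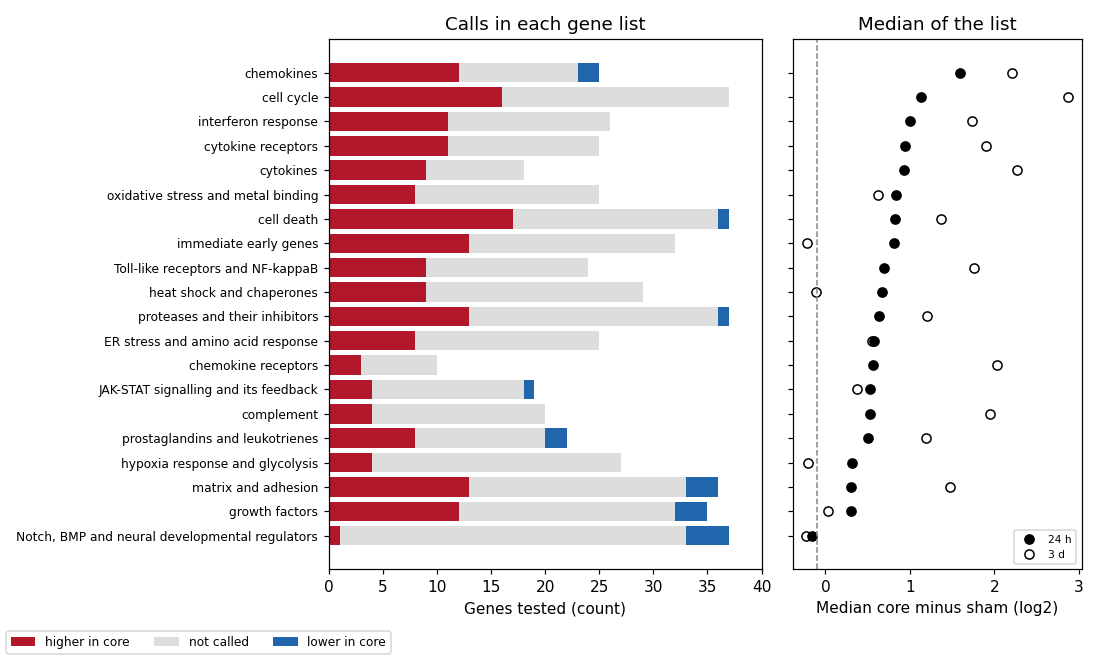
Left, number of genes tested in each of the 20 lists (x axis, count), split into genes called higher in core (red), not called (grey) and called lower (blue) at 24 h. Right, median difference between core and sham of each list (log2, x axis) at 24 h (filled) and at 3 d (open), with the median of all probes at 24 h (-0.10) as a dashed line, showing chemokines with the highest median at 24 h and cell cycle genes with the highest at 3 d.

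Markers of the cell types of cortex were counted in the same way. No neuronal marker of 18 tested was called, although 17 of the 18 differences were below 0 (median -0.41). Their list mean was 11.48 to 11.67 in the core pools and 11.94 to 12.08 in the sham pools. Snap25 had 14.35, 14.62, 14.18 and 14.87 in core and 14.86, 15.41, 15.11 and 15.31 in sham. Of 16 markers of excitatory neurons Camk2a (-1.35) and Rasgrf2 (-1.41) fell and Foxp2 (1.36) rose, the latter with overlapping groups and with no call in 6 of the 8 fits that left an array out, sham pool 8 among them. Of 15 interneuron markers Calb1 fell (-1.25), while Gad1 and Gad2 had differences of -0.11 and -0.33.

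Markers of resting astrocytes and genes of reactive astrocytes moved in opposite directions. None of 19 markers of resting astrocytes rose and 6 fell (median -0.83), with list means of 9.60 to 9.88 in core and 10.32 to 10.78 in sham. The gap junction protein Gjb6 had 10.45, 10.71, 9.46 and 10.41 in core and 11.98, 12.42, 12.55 and 12.35 in sham (-2.07 ± 0.24, adjusted p = 6.24e-08), and Aldh1l1 (-1.31 ± 0.14) and Gpc5 (-1.32 ± 0.30) fell too, whereas Aqp4 read 12.17 to 12.49 against 12.26 to 12.62. Of 23 genes of reactive astrocytes, 17 rose and none fell (median 2.13). The iron-binding Lcn2 had 11.07, 11.14, 11.58 and 11.22 in core and 7.98, 7.82, 5.38 and 6.20 in sham (4.40 ± 0.58, adjusted p = 1.00e-06). Gfap rose from 8.73 to 9.67 in sham to 10.99 to 11.37 in core (2.13 ± 0.41), and Nes (2.66) and Vim (1.44) rose with it. Several members of this list, such as Timp1, Cd44 and Hspb1, are also made by other cells.

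Markers of monocytes and macrophages rose in 12 of 18 genes and fell in none (median 1.92), with list means of 8.11 to 8.49 in core and 6.05 to 6.84 in sham. Lgals3, galectin-3, had 13.77, 13.51, 13.60 and 13.27 in core and 10.11, 9.36, 8.89 and 8.38 in sham (4.35 ± 0.62, adjusted p = 3.57e-06), the scavenger receptor Msr1 was at least 12.0-fold higher and Gpnmb rose by 3.68 ± 0.57. Ccr2, which defines recruited monocytes, was near background, as given above. Among 18 microglial genes 4 rose and 2 fell (median 0.34). Itgam (1.84) and Tyrobp (1.39, with a second probe not called) are shared with other myeloid cells, and of the genes specific to resting microglia P2ry13 was at least 2.48-fold lower, P2ry12 had 9.12 to 9.88 in core and 10.30 to 10.64 in sham (-0.94 ± 0.29) and Tmem119 was well above background on 1 core and 2 sham arrays.

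Neutrophil markers depended on the control. Of 11 tested, 3 rose and 1 fell against sham (median 1.27), and 8 rose when healthy cortex was the control. Without sham pool 8, 2 rose and none fell. Prtn3, the gene that fell, was not called without sham pool 8, core pool 2 or core pool 4, and Mcemp1 was called in 3 of the 8 fits that left an array out. S100a8 had 7.53, 6.95, 9.45 and 8.93 in core, which overlapped with sham pools 5 and 6 (1.70 ± 0.99, adjusted p = 0.228), and S100a9 had 7.41, 6.80, 8.90 and 8.82 in core against 7.62, 9.63, 4.54 and 5.04 in sham. The list mean was 5.33, 5.13, 6.60 and 6.36 in core and 4.65, 6.14, 3.65 and 3.67 in sham. Of the granule genes that define the cell, Mmp8, Elane and Ngp and the receptor Cxcr2 did not pass the filters. Of 9 lymphocyte markers Cd2 and Cd8a were called, as bounds of at least 2.28-fold and 1.16-fold, and Cd3e was not tested. The probe of Cd8a was well above background on 2 core arrays, and its call was lost without core pool 1 or sham pool 7.

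Leptomeningeal fibroblasts had the lowest median of the 17 marker lists (-1.53), with 9 of 17 genes lower and none higher. The list means were 6.99, 7.76, 6.04 and 6.90 in core pools 1 to 4 and 8.58, 7.88, 8.67 and 8.53 in the sham pools, so that the groups lay apart by little at core pool 2 and sham pool 6. Fmod, Ogn, Cilp, Wnt6 and Slc6a13 of the largest decreases belong to this list, and the collagens Col1a1 and Col1a2 and the growth factor Igf2 fell with them, whereas Dcn and Lum had differences of -0.07 and -0.02. How much meninges each dissection held is not given in the sources used here, and its part in these decreases was not tested. Of oligodendrocyte markers 1 of 17 was called higher and 1 lower, and of oligodendrocyte progenitors 2 of 10 were lower. Of endothelial genes 2 of 20 were higher and 2 lower, with a median of 0.11 and a mean of -0.03. Of pericyte genes 1 of 13 was higher and 2 were lower. These counts stand beside 947 genes called higher and 361 called lower among all 10737 named genes tested. Among endothelial genes the thyroid hormone and organic anion transporters Slco1c1 and Slco1a4 fell by 1.86 and 1.34, the latter with a second probe not called, while Kdr, the main receptor of Vegfa, rose by 1.09 but not without core pool 4 or sham pool 6. No gene of choroid plexus (7 tested) or of erythroid cells (5 tested) was called, and 1 of 8 muscle genes, Myh1, fell (1 more rose without sham pool 8). The choroid plexus transcript Ttr had a signal of 11.74 in sham pool 6 and of 0.51 to 4.98 on the other 7 arrays.

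**Figure D4:**
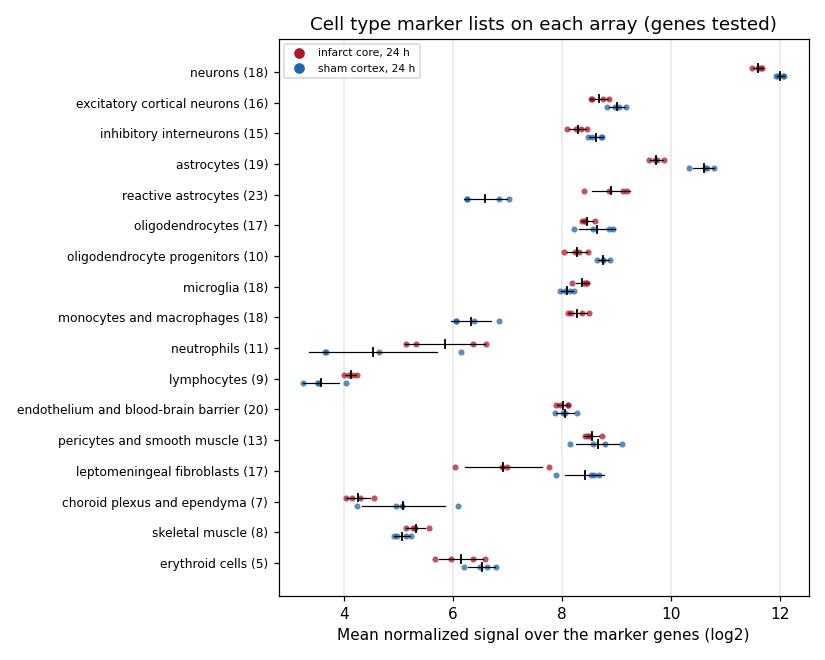
Mean normalised signal (log2, x axis) over the marker genes tested of each cell type, with the number of genes in parentheses. Each red point is a core pool and each blue point a sham pool, the vertical mark is the group mean and the line spans 1 SD on either side. Reactive astrocytes and monocytes and macrophages lie higher in core with separated groups, resting astrocytes lie lower, and neutrophil markers overlap because sham pool 6 reaches 6.14.

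Whether the changes at 24 h differed from those at 3 d was tested as a difference of differences, with core pools 9 to 12 and sham pools 13 to 16 at 3 d. No array was shared between the times. The change differed at 2865 of 26033 probes (11%), of which 1049 were higher and 1816 lower at 24 h than at 3 d. The count rose to 4765 when core pool 11 at 3 d was left out. Of the 2342 probes called at 24 h, 1451 (62%) were also called in the same direction at 3 d, when 6443 probes were called. The chaperones were higher at the earlier time. Hspa1a had 7.35, 7.70, 7.33 and 8.31 in core at 3 d and 6.02 to 6.36 in sham, so that its increase shrank from 6.31 to 1.48 (difference 4.83 ± 0.57, adjusted p = 7.84e-07), and that of Hspa1b shrank from 5.84 to 1.16 (4.68 ± 0.45). In all, 12 of the 29 chaperones tested were higher at 24 h than at 3 d in this test and none was lower. Among immediate early genes 11 of 32 were higher at 24 h and none was lower.

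Other genes were higher at 24 h as well. The probes of Krt25, Serpinb2 and Ka11 were well above background on no core array at 3 d, so that no size is given for their differences between times. The keratin Krt25 read 5.49, 5.99, 5.38 and 4.90 in core at 24 h against 2.48 to 3.37 in sham, and 0.66 to 0.83 in core at 3 d. Serpinb2, an inhibitor of plasminogen activation in macrophages, was at least 2.69-fold higher in core at 24 h. Ka11, a keratin gene, had 0.82, 3.65, 6.44 and 8.95 in core pools 1 to 4, with overlapping groups, and was at least 4.64-fold higher than sham. Bdnf was called in opposite directions, higher at 24 h (1.66) and lower at 3 d (-1.47).

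Proliferation, complement and leukocyte genes were later. Of 37 cell cycle genes 18 were lower at 24 h than at 3 d and none was higher, and the list's median rose from 1.13 to 2.88. Of 20 complement genes 12 were lower at 24 h, with medians of 0.52 and 1.95. C1qa, for example, had a difference of 0.47 at 24 h and of 2.33 at 3 d. The same held for 15 of 18 microglial genes and 9 of 18 monocyte and macrophage genes. Fabp4, a fatty acid binding protein of macrophages and vessels, was well above background on no core or sham array at 24 h and had 9.74, 9.32, 7.90 and 8.80 in core at 3 d against 0.92 to 1.49 in sham. Cd8a read 9.95, 9.29, 8.13 and 8.26 in core at 3 d, the macrophage sialoadhesin Siglec1 5.25 to 6.98 and the metalloproteinase Mmp7 7.61 to 8.75. No size is given for the differences of these 4 genes between times, since their probes were well above background on no sham array at 3 d and, except for Mmp7, on no sham array at 24 h. The ficolin Fcnb, which was measured in all 4 groups, read 10.61 to 11.58 in core at 3 d (difference between times -5.60). Col1a1 and Col1a2 fell at 24 h and rose at 3 d. Col1a1 had 9.67, 10.11, 8.14 and 8.95 in core at 24 h and 13.72, 13.66, 12.05 and 11.77 at 3 d, while the highest sham signals were 11.13 and 11.79.

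**Figure D5:**
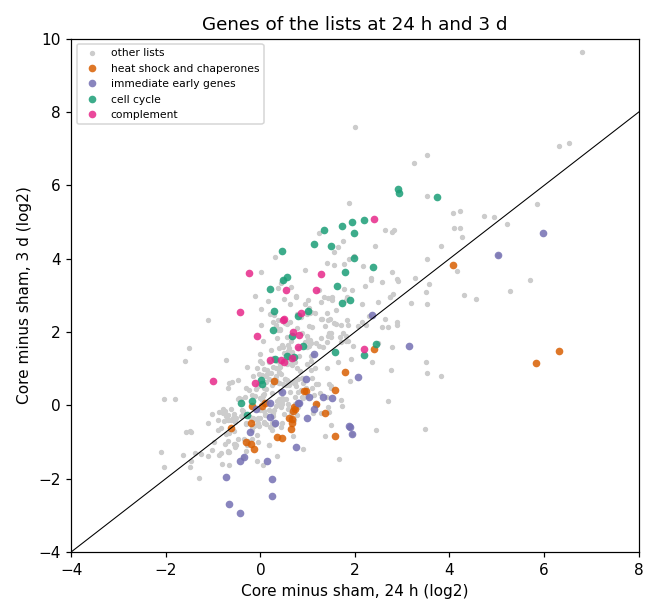
Difference between core and sham (log2) at 24 h (x axis) and at 3 d (y axis) for the genes of the 20 lists and the line of equal difference. Heat shock genes (orange) and immediate early genes (purple) lie mostly below the line, and cell cycle (green) and complement genes (pink) mostly above it.

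Few probes were called between core and the periinfarct cortex of the same rats. At 24 h, 46 of 26033 probes (0.177%) were called between them, 14 higher and 32 lower in core. The same rats gave both tissues, and with the pool number as a block no probe was called in the limma fit. In that fit 3990 probes had an unadjusted p below 0.05 and the smallest adjusted p was 0.0559. It held only the core and periinfarct arrays, and on these arrays alone 3 probes were called without the block. Few calls do not show that the tissues are alike. The genes named next carry a call in the fit over all 44 arrays without the block. Leaving out single arrays gave a lowest count of 6 (periinfarct pool 3 omitted) and a highest of 138 (periinfarct pool 2 omitted). It was 128 without core pool 1, 116 without periinfarct pool 1, 76 without core pool 2, 22 without core pool 3, 17 without periinfarct pool 4 and 11 without core pool 4. The synaptic organiser Cbln1 had 5.87, 5.90, 6.40 and 7.24 in core, 4.08, 5.59, 3.04 and 3.83 in periinfarct pools 1 to 4 and 0.99 to 2.66 in sham cortex. It was higher in core than in periinfarct cortex by 2.22 (adjusted p = 0.0492) and rose against sham by 4.64 ± 0.52. Ado (2.12), Hs3st2 (1.49), the kainate receptor subunit Grik1 (1.33) and the synaptotagmin Syt10 (1.29) were the next higher in core. Of these, Hs3st2 also rose against sham (1.56 ± 0.33), whereas Ado, Grik1 and Syt10 did not.

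Lower in core than in periinfarct cortex were the tachykinin Tac4 (-2.15), Ogn (-2.07), the connexin Gjb2 (-1.97) and Omd (-1.76). Of these, Ogn, Gjb2 and Omd also fell against sham, whereas Tac4 was not called against sham (-0.58 ± 0.48). Ogn read 6.31, 7.67, 3.77 and 5.78 in core, 7.49, 9.09, 7.01 and 8.21 in the periinfarct pools and 8.59 to 9.53 in sham, and in each of the 4 pools core lay below the periinfarct cortex of the same rats. Gjb2, a connexin of the meninges and astrocytes, read 8.93, 10.09, 7.32 and 8.86 in core and 10.06, 10.93, 10.83 and 11.23 in periinfarct cortex. The largest increases over sham were also present in periinfarct cortex. Spp1 had 14.80, 13.58, 14.68 and 15.47 there, Ccl2 had 11.86, 12.11, 12.16 and 14.58, and Hspa1a had 12.37, 11.59, 12.96 and 13.65, none of them called different from core.

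The control tissue was varied as well, with the core arrays kept, so that these comparisons share the core pools and each is given with its own values. Against healthy ipsilateral cortex 3280 probes were called, 1747 higher and 1533 lower, so that the share of increases was 53.3% in place of 69.1% against sham. Spp1 had 4.74 to 5.16 in healthy cortex and Ccl2 3.20 to 4.10, below all sham pools for Spp1 and below 3 of the 4 sham pools for Ccl2. Their differences against healthy cortex were 9.63 and 9.13, larger than those against sham. Against the contralateral cortex of the same rats 2450 probes were called, 1592 higher and 858 lower. That fit held the core and contralateral arrays alone, with the pool number as a block, unlike the other fits over all 44 arrays. Among the gene lists, 9 chaperones rose against sham, against healthy cortex and against this contralateral cortex. Of the chemokines 12, 14 and 13 rose in this order, of the interferon response 11, 14 and 13, of the cell cycle 16, 15 and 18 and of the reactive astrocyte genes 17, 17 and 18. Lower genes numbered 9, 12 and 9 of 17 among leptomeningeal fibroblast markers and 6, 6 and 6 of 19 among astrocyte markers.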

How the data were processed

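Each array was hybridised in a single colour with Cy3-labelled RNA that the authors pooled from 3 rats, and it was scanned and quantified with Agilent Feature Extraction 10.7.3.1. The labels name a microRNA labelling kit and TRIzol extraction where the study's methods name a one-colour gene expression protocol, and which was used for these arrays was not settled. The deposited scanner files hold, for each of 45018 spots, a background-subtracted intensity (the processed signal) with flags. The authors also deposited a normalised log2 table of 20395 probes, which was used as an alternative and as a source of symbols.

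The processed signal was raised to a minimum of 1 where it was lower, quantile normalised over the 44 arrays and taken to log2, after uneven and outlying spots were left out, and spots of a probe were averaged. Of 41012 probes, 26033 were kept, namely those above the 20th percentile and well above background on at least 75% of the arrays of a group and with a coefficient of variation above 2.5%. A probe missing on an array was fitted without that array (92 probes, 14 of them on an array of core or sham at 24 h). Differences were fitted with limma 3.58.1 in R 4.3.3 with a mean for each of the 11 groups (33 residual degrees of freedom) and adjusted after Benjamini-Hochberg over all probes kept. A call required an adjusted p below 0.05 and a 2-fold difference. A probe that was nowhere well above background in the dimmer group was given only as a lower bound of its fold ("at least"), computed from the lowest signal of probes well above background on each array. The number of arrays limits the precision, and no depth applies to arrays. Arrays of a group are separate pools, and the residual spread behind each SE and p-value was shared by all 11 groups. It is therefore not the spread of the core and sham pools alone. Omd, for example, had an SE of 0.38 beside SDs of 1.37 in core and 0.39 in sham. Core, periinfarct and contralateral arrays of the same rats entered this fit as if they were independent. The 44 arrays lay on 11 slides, which were fitted as a block in the alternatives.

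Symbols were given to 18865 of the 41012 probes, 16815 through their RefSeq accession and 2050 through the deposited table. Where a gene had several probes, that of the highest mean signal over all arrays stood for it. Named were the 10 largest increases and decreases whose groups did not overlap, in each list the first 3 genes and up to 4 called genes in each direction, and in the other comparisons the 5 largest differences each way, and further genes were added to describe a list after their values were seen. A few genes that these rules would name are not reported here. The groups came from the labels alone, while the lists and tests were chosen with earlier results of these data known.

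In simulated data for core against sham, 200 of the 26033 probes were changed. Every group had the 24 h sham means, and each probe had 1 spread with independent noise. With these settings 90% of probes changed 4-fold and 100% of those changed 8-fold were called, with 7 false calls. The simulation held no correlation between arrays of the same rats, no slide effects and no unequal spreads of groups, so that these rates need not hold for the real arrays. Core and periinfarct arrays of the same pool came from the same rats, and their deviations from the group means had a mean correlation of 0.205 (lowest 0.009) beside -0.069 for arrays of different pools. Sequences were read from the RefSeq promoter table on GRCr8 and no genome was used. The alternatives concerned the scaling, background correction, probe filter, arrays and weights in the fit, slide, control tissue, fold minimum and the omission of single arrays.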

Additional observations from a re-analysis of the deposited data

Results flagged for a closer look

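In groups of 4 pools, the highest or lowest pool was compared with its distance to the others for each named gene, and 21 of 436 groups (4.82%) had a pool that stood apart by Dixon's criterion, where chance gives about 1 in 20. In core, these were the log2 signals of Tnfrsf1a in pool 1 (10.20, other pools 10.28 to 10.29), Defb1 in pool 2 (4.49, others 0.67 to 0.87), Wnt6 in pool 2 (2.01, others 0.55 to 0.61), Aifm3 in pool 3 (8.93, others 9.55 to 9.66), Sele in pool 3 (7.38, others 8.43 to 8.59) and Siglec1 in pool 3 (1.17, others 0.59 to 0.63). Core pool 4 stood apart in Rasgrf2 (6.15, others 5.31 to 5.41), Itgam (7.90, others 7.68 to 7.69) and Selplg (3.24, others 2.78 to 2.85).

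In sham cortex, pool 5 stood apart in Mx1 (3.35, others 1.38 to 1.47), Olig1 (12.11, others 12.82 to 12.93), Cd8a (1.45, others 0.59 to 0.67) and Mmp7 (4.94, others 0.53 to 0.59), and pool 6 in Hs3st2 (10.85, others 10.15 to 10.26). Sham pool 7 stood apart in Maff (0.52, others 1.85 to 2.09), Irf1 (4.59, others 5.40 to 5.42) and Kcnj8 (9.79, others 9.30 to 9.35). Sham pool 8 stood apart in Cd55 (1.45, others 0.71 to 0.72), Olig2 (5.41, others 4.18 to 4.29) and Serpinb2 (1.01, others 0.57 to 0.60), and in the share of spots well above background, 77.7% beside 65.4% to 67.4%.

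The difference between core and sham itself differed between 24 h and 3 d at 2865 probes in the limma test of that difference. Among the genes with the largest such differences, Hspa1a (4.83), Hspa1b (4.68), Krt25 (4.26), Ka11 (4.24) and Serpinb2 (4.12) were higher at 24 h, and Fabp4 (-6.31), Cd8a (-5.76), Siglec1 (-5.64), Fcnb (-5.60) and Mmp7 (-5.58) were lower at 24 h. Of these 10 genes, all but Hspa1a, Hspa1b and Fcnb were well above background on no array of at least 1 of the 4 groups compared, so that their values are fitted differences against background and not measured sizes.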

How the results depend on the processing

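Of the 3 counts of called probes, that of core against sham (2342) stayed within 1.5 times except with normexp background correction (678) and without a fold minimum (5978). It was 1985 to 2637 when single arrays were left out. Of the 159 named genes called, none changed direction under any alternative run. Normexp kept 105 of them, scaling to the 75th percentile kept 152 and healthy cortex as the control kept 141. The list results also depended on these choices. Normexp moved 25 of 74 list counts and 17 of 37 list medians. Healthy cortex as the control moved 21 counts and 16 medians, and own contralateral cortex moved 13 and 5. Leaving out single arrays moved 38 of 592 counts and 5 of 296 medians. The share of higher calls, 69.1%, was 64.8% after scaling to the 75th percentile, which moved the median of all probes from -0.10 to -0.16.

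The count for 24 h against 3 d (2865) was 1265 with normexp, 5960 with array weights, 4792 without a fold minimum and 2113 to 4765 without single arrays. Calls higher at 24 h made up 36.6%, but 23.8% with normexp, 49.4% with array weights and 48.6% without core 3 d pool 11. The count for core against periinfarct (46) was 0 with the pool number as replicate block, 3 with the groups compared alone, 10 with slide as a fixed block, 20 with normexp, 91 with array weights, 84 without a fold minimum and 6 to 138 without single arrays. With 75th percentile scaling, 18% of 50 calls were higher in core in place of 30.4%. Admitting probes with a looser background flag, an alternative chosen after seeing the data, gave 2435 calls for core against sham. The cause was not tested in any of these cases.

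The median of the Notch and BMP list changed sign with the authors' table (0.01), as did that of endothelium against healthy cortex (-0.47) and against own contralateral cortex (-0.0015), erythroid cells against healthy cortex (0.20) and choroid plexus under the stricter filter (0.02). Signals of 0.5 to 3 lie near background and limit the folds of the dimmest genes.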
